A study of Mus musculus with 9 samples.

Results

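In neonatal rat ventricular cardiomyocytes, 43 genes went from near silence to clear expression when Nrf2 was overexpressed. They were chosen by measured values: in the table that sets LacZ against Nrf2, the authors' mean was under 5 normalized reads with LacZ, at least 20 with Nrf2 and at least 5 times the LacZ mean. That table lists 14986 genes, of which 2944 had a LacZ mean under 5, so 43 genes were 1.46% of those that could pass. Because the members were selected on the contrast of LacZ with Nrf2, their values in it are a description with no test. Mmp3, Mmp10, Gsta1 and Irf4 were left out by name. None of them had a LacZ mean under 5 in that table, so this removed no gene that met the rule. The question asked here was which of the 43 genes Nrf1 also switches on, how evenly the libraries of a group carried them, and what the members share besides the pattern that selected them.

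The cells were primary ventricular cardiomyocytes of Sprague Dawley rats aged 1 or 2 days, cultured for 48 h and then infected with adenovirus at a multiplicity of infection of 50. There were 3 groups of 3 libraries: Adeno-LacZ, carrying a bacterial reporter as the infection control, Adeno-Nrf1 and Adeno-Nrf2, which carried the mouse coding regions under the CMV promoter, active in many cell types. The groups were thus given the same multiplicity of infection; which cells of the culture took up the virus is not shown by these values. The organism label names the mouse, but the strain, the cell type label and the genome used for alignment are those of the rat. Cardiomyocyte genes were abundant, with the authors' mean for Tnnt2 at 34221 with LacZ and 39682 with Nrf2. Nothing in the labels says whether the libraries of a group came from separate isolations.

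Nrf2 (gene Nfe2l2) is a transcription factor of the cap'n'collar family that Keap1 holds in the cytoplasm and marks for degradation. Under oxidative or electrophilic stress it escapes, pairs with small Maf proteins and binds antioxidant response elements near genes of glutathione synthesis, quinone reduction and NADPH supply. Nrf1 belongs to the same family and binds similar elements; it resides in the endoplasmic reticulum membrane and is best known for raising proteasome genes when the proteasome fails. In the heart both factors are studied for protection against oxidative injury. Many well known Nrf2 targets are already expressed at rest, so genes that are nearly silent until the factor is forced form a separate kind of readout.

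The overexpression itself was visible in Nfe2l2. The authors' mean was 3475 with LacZ and 75066 with Nrf2, a ratio of 21.6, whereas the Nrf1 libraries gave 2688 against 3254 with LacZ in their own table, a ratio of 0.826. Reads of the mouse transgene and of the rat gene cannot be told apart in these values. Each pair of groups was normalized separately by the authors, so a level is compared only within its own table.

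The files give group means, but low means hold the single libraries. A mean of normalized counts is a sum of whole reads, each worth a fixed step that differs between the 3 libraries, and the 3 steps were read from the genes with a single read. For each of the 43 members exactly 1 set of whole reads gave the deposited mean in LacZ, in Nrf1 and in Nrf2, and for each member listed in both LacZ tables the sets were identical. Over all 4917 genes with an Nrf1 mean above 0 and under 50, 4917 had exactly 1 solution; for the 4908 of them that are also in the other table, the solutions predicted its mean to within a relative difference of 1.68e-09. The libraries are called a, b and c in order of depth within a group, since the means do not show which labelled replicate is which. Depths were estimated as the reads counted to the listed genes, if the libraries of a group had equal normalized totals. They were about 9.41, 8.40 and 7.97 M reads with LacZ. With Nrf1 they were 10.4, 10.1 and 8.62 M, and with Nrf2 12.0, 11.4 and 10.2 M. At these depths a gene with no read in the LacZ group can still have a mean of up to 1.11, which is what 3 reads over the group would give. Folds against a group at 0 use this floor and are written as lower bounds. Intervals are exact 95% intervals on the reads (Clopper-Pearson) and, like the floor, cover counting error only. The lower limit of that interval lies below the bound from the floor and is given beside it.

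The 43 members together held 178 reads in the LacZ libraries, 668 with Nrf1 and 10666 with Nrf2. In LacZ, 7 members had no read at all, among them Zfp352, Mepe, Cers3, Grin2b, Rassf6 and Apcs; 17 had 1 to 3 reads and 19 had 4 to 13. With Nrf2 the members' means ran from 20.4 to 634, with a median of 39.3, and 8 of them reached 100. The members were thus silent or close to it at the start, and most of them stayed modest in absolute terms: their summed mean with Nrf2 was 0.0317% of all normalized reads in that group. Crisp1 and RGD1309870 alone made up 31.3% of that sum. Gene lengths were not used, so means are not ranked as levels between genes.

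**Figure D1:**
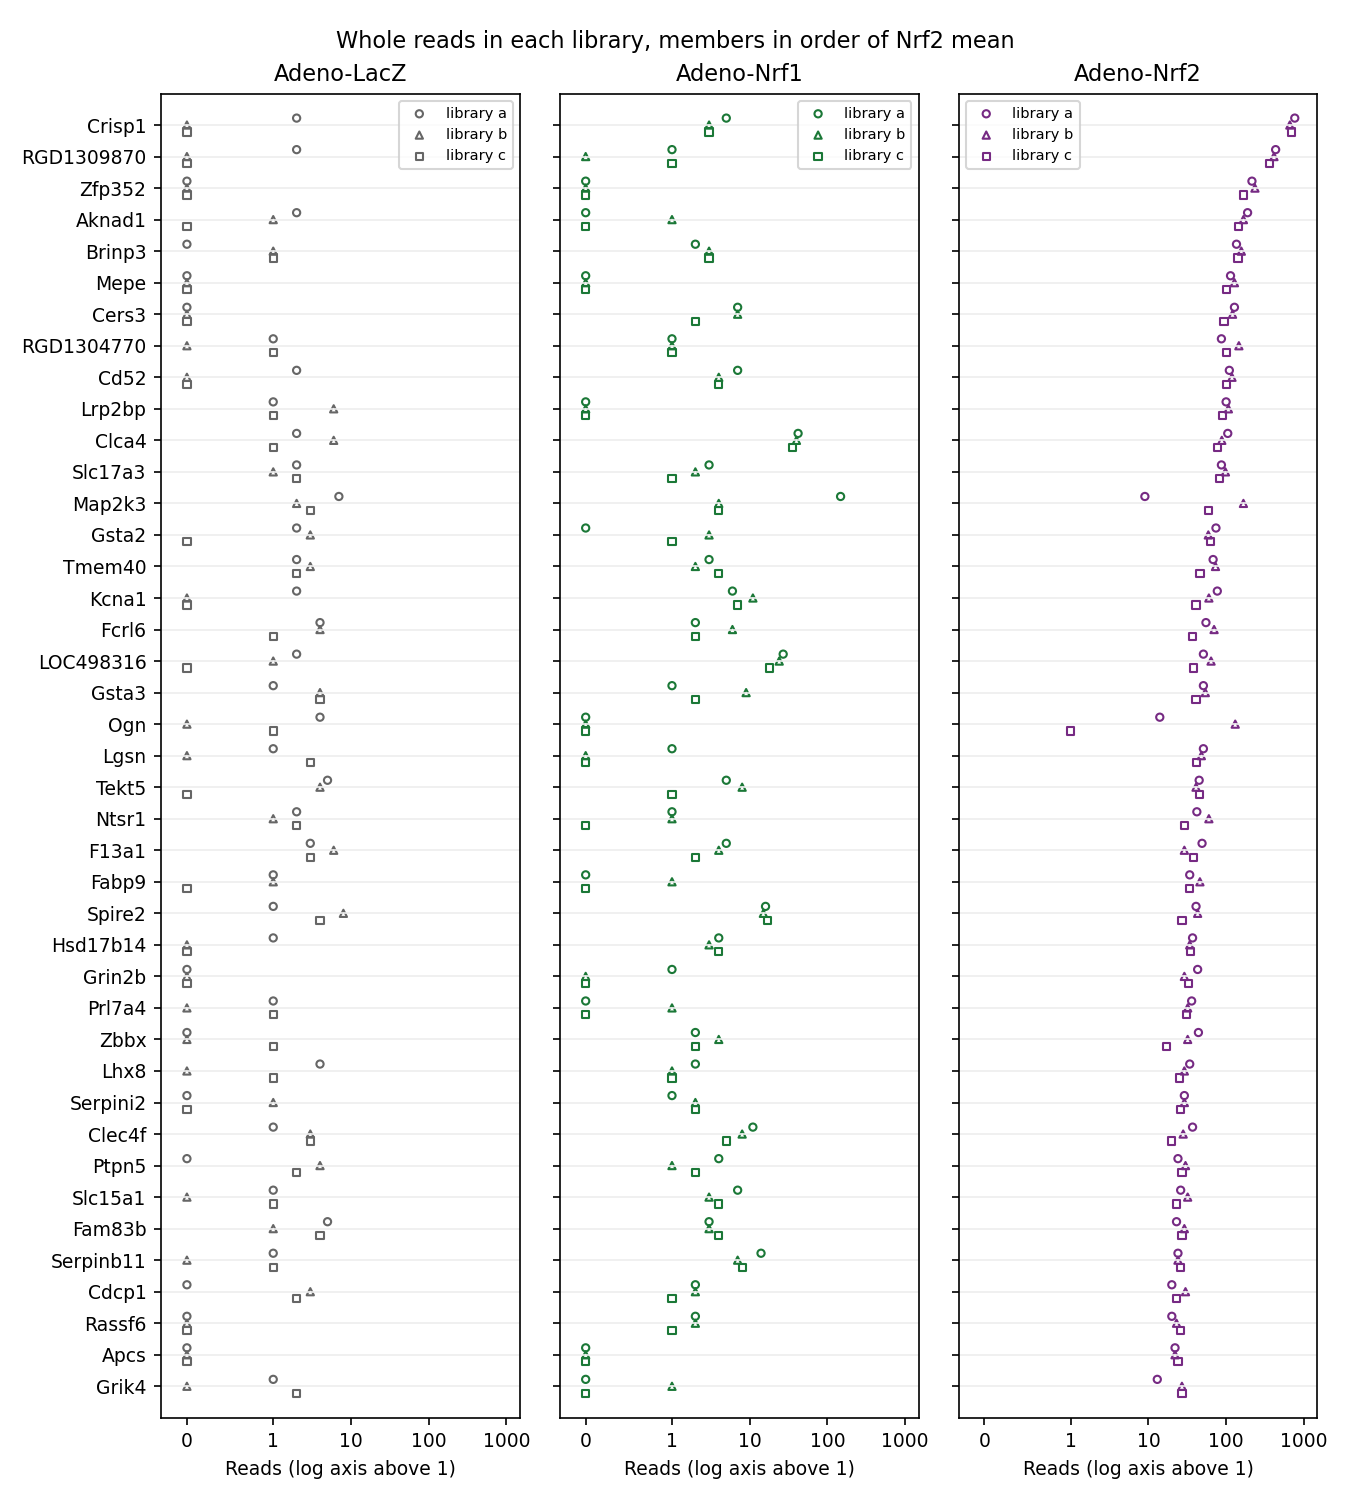
Whole reads of the members shown (rows, in order of the authors' Nrf2 mean) in the 3 libraries of each group; the horizontal axis is linear from 0 to 1 and logarithmic above, and the symbols mark libraries a, b and c. In Nrf2 the libraries lie close together for most members, while Map2k3 and Ogn spread from 9 to 167 and from 1 to 131 reads.

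The Nrf2 libraries lay close together for most members. The same spread was not computed over other genes of similar means, so it is not read as particular to the members. The highest library exceeded the lowest by a median of 1.28 times after normalization, by less than 1.5 times in 30 members, by 1.5 to 2 times in 9 and by 2 to 3 times in Zbbx and Grik4. The exceptions were Map2k3 and Ogn, which rested largely on single libraries. Map2k3, a kinase that activates stress-responsive MAP kinases, had 7, 2 and 3 reads with LacZ, 148, 4 and 4 with Nrf1, and 9, 167 and 60 with Nrf2. Ogn, a small leucine-rich proteoglycan of the extracellular matrix, had 4, 0 and 1 reads with LacZ, none with Nrf1, and 14, 131 and 1 with Nrf2. Without Nrf2 library b the Nrf2 mean of Ogn was 6.33 in place of 42.7, below the limit of the rule, and that of Map2k3 was 33.2 in place of 71.1. Neither gene showed the even rise over 3 libraries seen in most of the rest, and the source of the high single libraries was not tested. Leaving both out gives 41 genes with 161, 512 and 10284 reads in LacZ, Nrf1 and Nrf2. Every Nrf2 library lay above every LacZ library for the other 41 members and for Map2k3, but that separation follows from the selection.

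Secreted proteins and inhibitors gave 7 members, among them the gene with the most reads. Crisp1, a cysteine-rich secretory protein that the epididymis adds to the surface of sperm, had 2, 0 and 0 reads with LacZ and 765, 661 and 697 with Nrf2. The authors' means of 0.673 and 634 differ by 943-fold, with a counting interval of 237 to 7095 because the LacZ group held only 2 reads. Nrf1 gave 5, 3 and 3 reads, above each LacZ library but far below each Nrf2 library. Mepe, a phosphoglycoprotein of bone and tooth matrix, was at 0 in the LacZ and Nrf1 libraries alike and had 114, 128 and 102 reads with Nrf2. By the floor that is at least 92.8-fold higher than LacZ (interval limit 75.0) and at least 100.1-fold higher than Nrf1 (interval limit 80.9). Brinp3, a secreted protein of neural cells, had 0, 1 and 1 reads with LacZ, 2, 3 and 3 with Nrf1 and 136, 157 and 142 with Nrf2. Among the protease inhibitors, Serpini2 had 1 read with LacZ, 5 with Nrf1 and 84 with Nrf2, and Serpinb11 had 2, 29 and 74. Prl7a4, a placental hormone of the prolactin family, had 2, 1 and 99 reads. F13a1, the A subunit of coagulation factor XIII, which macrophages also make, had 12, 11 and 116.

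The list of channels, receptors, transporters and other membrane proteins held 9 members. The role lists were written around the members, so their sizes order the description and are no finding. Clca4, of a family of secreted regulators of calcium-activated chloride channels, had 2, 6 and 1 reads with LacZ and 105, 88 and 77 with Nrf2. Slc17a3, an organic anion transporter that carries urate in the kidney, had 2, 1 and 2 reads and then 87, 98 and 83. Its Nrf1 libraries, with 3, 2 and 1 reads, overlapped LacZ. Kcna1, a voltage-gated potassium channel of axons, had 2, 0 and 0 reads with LacZ, 6, 11 and 7 with Nrf1 and 77, 60 and 41 with Nrf2. Ntsr1, a neurotensin receptor, went from 5 reads over the LacZ group to 131 with Nrf2 and had 2 with Nrf1. The peptide transporter Slc15a1 had 2 reads with LacZ, 14 with Nrf1 and 81 with Nrf2, and the kainate receptor subunit Grik4 had 3, 1 and 67. The membrane proteins Tmem40 and Cdcp1 had 7 and 5 reads with LacZ, 9 and 5 with Nrf1 and 187 and 73 with Nrf2. For both, the Nrf1 libraries overlapped those of LacZ.

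Enzymes and binding proteins gave 7 members. Cers3, a ceramide synthase for very long chains that the skin barrier depends on, had no read with LacZ, 7, 7 and 2 with Nrf1 and 128, 121 and 94 with Nrf2, by the floor at least 92.1-fold higher than LacZ (interval limit 74.8). Gsta2 and Gsta3, glutathione S-transferases of the alpha class, are the members closest to the classical Nrf2 program. Gsta2 had 2, 3 and 0 reads with LacZ, 0, 3 and 1 with Nrf1 and 74, 59 and 63 with Nrf2. Gsta3 had 1, 4 and 4, then 1, 9 and 2, then 51, 54 and 41. With Nrf1 both overlapped LacZ. Alpha-class genes are near copies of each other, so reads may be divided among them and their single values are uncertain. Hsd17b14, a steroid dehydrogenase, had 1 read with LacZ, 11 with Nrf1 and 106 with Nrf2. Lgsn, a lens protein related to glutamine synthetase, had 4, 1 and 141, and the testis fatty acid binding protein Fabp9 had 2, 1 and 114. The neuronal phosphatase Ptpn5 had 6, 7 and 81. In these last 3 genes the Nrf1 group differed from LacZ by at most 3 reads.

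Proteins of the immune cell surface gave 3 members. A mixed list, written around cilia, flagella and the cytoskeleton, held 6, and a place in it is no statement of function. Cd52, a small glycopeptide of lymphocytes and of the epididymis, had 2, 0 and 0 reads with LacZ, 7, 4 and 4 with Nrf1 and 110, 119 and 102 with Nrf2. Its ratio of Nrf2 over LacZ was 147, with an interval of 36.8 to 1110. Fcrl6, a receptor of cytotoxic lymphocytes, had 9, 10 and 162 reads over the groups, and Clec4f, a lectin of liver macrophages, had 7, 24 and 85. In the mixed list, Aknad1 had 2, 1 and 0 reads with LacZ, 0, 1 and 0 with Nrf1 and 189, 167 and 145 with Nrf2. Lrp2bp, which binds the endocytic receptor megalin, had 1, 6 and 1 reads with LacZ, none with Nrf1 and 100, 107 and 89 with Nrf2. It was the member with the most LacZ reads among those absent from all Nrf1 libraries. Tekt5, a tektin of the sperm flagellum, had 9, 14 and 131 reads in LacZ, Nrf1 and Nrf2, Zbbx had 1, 8 and 93, and Fam83b had 10, 10 and 79. The actin nucleator Spire2 had 13, 48 and 111.

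The list of transcription factors held the members Zfp352 and Lhx8. Zfp352, a zinc finger gene known from the early mouse embryo, was at 0 in LacZ and Nrf1 and had 215, 235 and 166 reads with Nrf2, by the floor at least 166-fold higher than LacZ (interval limit 135) and at least 179-fold higher than Nrf1 (interval limit 145). Lhx8, a LIM homeobox gene of forebrain neurons and oocytes, had 5, 4 and 88 reads over LacZ, Nrf1 and Nrf2. The 3 uncharacterized members were RGD1309870 with 2, 0 and 0 reads in LacZ and 434, 413 and 366 in Nrf2, RGD1304770 with 1, 0 and 1 and then 87, 146 and 102, and LOC498316 with 2, 1 and 0 and then 51, 64 and 38. RGD1309870 had 2 reads in all with Nrf1 and RGD1304770 had 3, whereas LOC498316 had 69. Of 6 members outside the role lists, Map2k3 and Ogn are given above. Grin2b, a subunit of NMDA receptors that the list of channels and receptors did not include, had 0, 1 and 105 reads in LacZ, Nrf1 and Nrf2. Rassf6, a RAS association domain protein, had 0, 5 and 69, and Apcs, the serum amyloid P component, had 0, 0 and 68.

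At the edges of the rule the reads changed little from gene to gene. Just above an Nrf2 mean of 20 stood Grik4 (20.4), Apcs (20.4) and Rassf6 (20.8), and just below it Bpi (19.6), Mt3 (18.8) and Vsx1 (18.3). On the LacZ side Spire2 (4.94), F13a1 (4.46) and Map2k3 (4.30) passed, while Mrpl30 (5.17), Dkkl1 (5.53) and Aldh1a7 (5.73) did not. The smallest folds inside were 6.50 for Fam83b, 6.64 for Spire2 and 7.74 for F13a1. Tmprss11d, at 4.90, was the only gene kept out by its fold alone. Members near an edge moved with single libraries: without 1 LacZ or Nrf2 library at a time, 42 to 46 genes passed and 40 to 43 of them were members.

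Nrf1 switched on 3 of the 43 members by the same limits: Clca4, LOC498316 and Map2k3. In the table of LacZ with Nrf1, 8 of 2852 genes with a LacZ mean under 5 passed, 0.281%, so the 3 genes are 6.98% of the Nrf2 members and 37.5% of the Nrf1 genes. The LacZ libraries are shared by these comparisons, so the overlap was not tested. Clca4 had 42, 40 and 36 reads with Nrf1 against 2, 6 and 1 with LacZ, with authors' means of 37.6 and 3.12 and a ratio of 12.1 (interval 6.16 to 27.1). LOC498316 had 27, 24 and 18 reads against 2, 1 and 0, with means of 21.8 and 0.983 and a ratio of 22.2 (6.96 to 105). For both genes every Nrf1 library lay above every LacZ library. Map2k3 passed through library a alone: without it the Nrf1 mean was 3.98 in place of 46.6, and 2 of the 43 members were then left. The 5 other genes that passed with Nrf1, named here after their values were seen, were Havcr1, Nmb, Crb3, RGD1561795 and Alx4. RGD1561795 had 1 read with LacZ, 94 with Nrf1 and 60 with Nrf2, close to the limit for Nrf2 with a mean of 17.9. Havcr1 had 60, 45 and 32 reads with Nrf1 but 2, 5 and 5 with Nrf2, so a start from near silence was also seen with Nrf1 where Nrf2 had little.

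Below those limits, more of the members had higher means with Nrf1. In all, 39 members are listed in the table of LacZ with Nrf1; the other 4, among them Zfp352, Mepe and Apcs, are not, and the direct table gives them 0 reads with Nrf1. Of the 36 with LacZ reads, 10 had an Nrf1 mean at least 5 times that of LacZ, 27.8% against 2.95% of all 2507 genes with a LacZ mean above 0 and under 5, and 7 of them stayed under 20: Serpinb11 (9.16 against 0.688), Kcna1 (7.65 against 0.631), Cd52 (4.73 against 0.631), Slc15a1 (4.43 against 0.688), Hsd17b14 (3.54 against 0.315), Crisp1 (3.48 against 0.631) and Zbbx (2.53 against 0.372). These ratios rest on 1 or 2 LacZ reads, and for Zbbx the interval of 0.989 to 327 includes 1. Another 4 lay between 2 and 5 times, with Spire2 at 15.4 against 4.62 and Clec4f at 7.50 against 2.49. Then 14 lay between 0.5 and 2 times, 8 were at 0.5 times or less, and Cers3, Rassf6 and Grin2b had no LacZ read to compare with. For the bands under 5 times no share over all genes was computed, so these counts only describe the members. In 14 of the 39 members, 35.9%, every Nrf1 library lay above every LacZ library; the same held for 6.03% of all 2852 genes with a LacZ mean under 5. The LacZ libraries also served to select the members, and few reads make separation unlikely for the silent genes of the background, so the shares are given side by side without a test. Over the 39 members the median of log2((Nrf1 + 1)/(LacZ + 1)) was 0.22, against -0.10 over the genes with a LacZ mean under 5 and -0.03 over all genes. A typical member was therefore barely higher with Nrf1, and the separated genes form the upper part of a wide range.

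**Figure D2:**
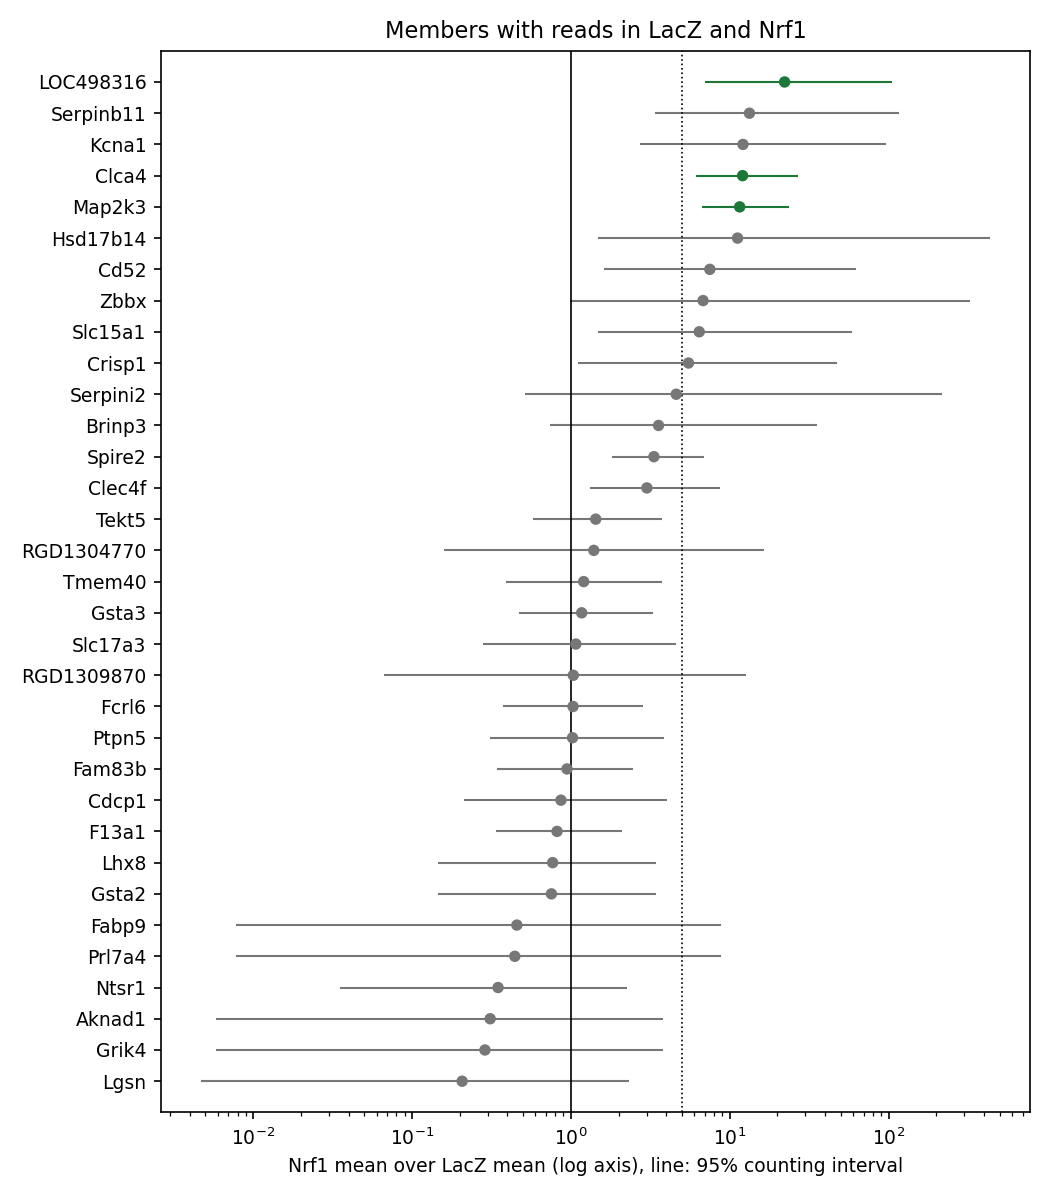
Ratio of the authors' Nrf1 mean over the LacZ mean (logarithmic axis) for the members shown that have at least 1 read in each group; lines are 95% counting intervals, green marks the 3 members that pass the rule with Nrf1, and the vertical lines stand at 1 and 5. Intervals of Clca4, LOC498316 and Map2k3 start above 5, while the interval of Crisp1 runs from 1.11 to 47.1 because it rests on 2 LacZ reads.

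Set directly against each other, Nrf2 exceeded Nrf1 widely in most members. In the table of Nrf1 with Nrf2, 37 of the 43 members had an Nrf2 mean at least 5 times the Nrf1 mean, whereas 111 of 10647 genes with an Nrf2 mean of at least 20 did, 1.04%. The Nrf2 libraries of this table are the ones that chose the members, so the count is a description. The median of log2((Nrf2 + 1)/(Nrf1 + 1)) was 4.04 over the members and 0.03 over all genes. The highest ratios belonged to RGD1309870 (514, interval 146 to 4376), Aknad1 (454, interval 78.1 to 17304) and Zfp352 (at least 179, interval limit 145), then Crisp1 (170, interval 93.9 to 338) and Lgsn (132, interval 21.7 to 4894). Lgsn had 1 read with Nrf1, each of the first 3 had at most 2, and Mepe (at least 100.1) and Lrp2bp (at least 86.2) had none and no upper limit, so the order of these genes is not resolved by the counts.

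The 6 members under 5 times had Nrf1 means from 8.37 to 52.0, a range that held 1 other member, Kcna1. Map2k3 had a ratio of 1.42 with overlapping libraries. LOC498316 was at 1.94 (1.45 to 2.61), Spire2 at 1.98 (1.43 to 2.89), Clca4 at 1.99 (1.6 to 2.50), Serpinb11 at 2.26 (1.43 to 3.55) and Clec4f at 3.11 (1.95 to 5.09). In each of these 5 genes every Nrf2 library still lay above every Nrf1 library. Every Nrf1 library in turn lay above every LacZ library, so the genes lay above LacZ in both groups, with the higher values under Nrf2. Slc15a1 (5.08), Kcna1 (6.38) and Fam83b (6.82) followed just above the limit. Fam83b reached that place from the other side, since its 10 Nrf1 reads equalled its 10 LacZ reads. The 14 members with every Nrf1 library above every LacZ library included Clca4, Kcna1, Slc15a1, Serpinb11, Spire2 and Clec4f. The others were LOC498316, Crisp1, Brinp3, Cers3, Cd52, Hsd17b14, Zbbx and Rassf6.

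**Figure D3:**
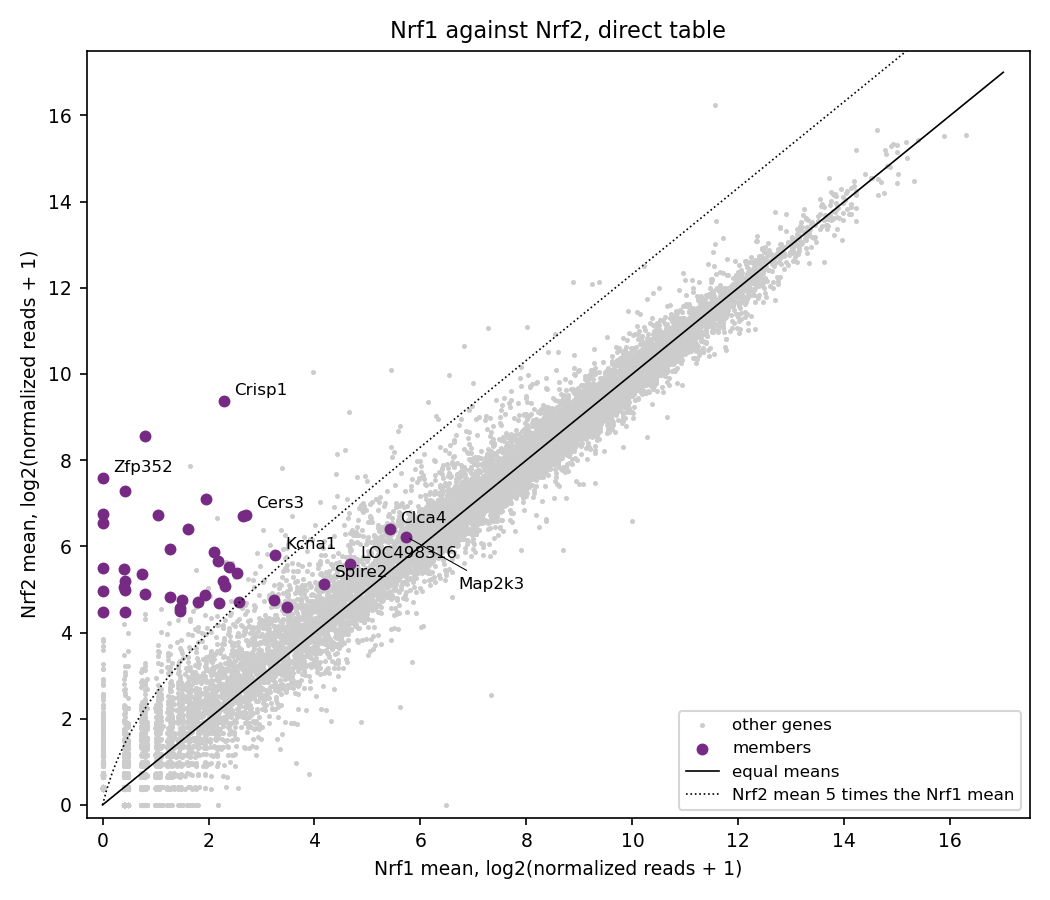
Authors' means with Nrf1 (horizontal) and Nrf2 (vertical) on a log2(mean + 1) scale in the table that sets Nrf1 against Nrf2, members in purple and all other genes in grey; the solid line marks equal means and the dotted line an Nrf2 mean 5 times the Nrf1 mean. Members lie above the dotted line except for 6, among them Clca4, LOC498316, Spire2 and Map2k3.

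Most listed genes of the known Nrf2 program were already expressed with LacZ, whereas the members were chosen for not being so. Of 69 listed genes in 8 lists of the pathway, leaving out Nfe2l2, 49 had a LacZ mean of at least 100 and 6 had one under 5; Gsta2 and Gsta3 were the members among them. With a limit of 1.5-fold, 47 of the 69 were higher with Nrf2 and 2 lower, while over all genes 15.6% were higher and 15.5% lower. Among all genes with a LacZ mean of at least 5, as most of the 69 had, 8.62% were higher and 12.2% lower. The median ratio of the 69 was 2.30 with Nrf2 and 1.48 with Nrf1, against 0.982 and 0.964 over all genes with LacZ reads. The 69 include Gsta2 and Gsta3, whose rise with Nrf2 follows from their selection. Nqo1, which reduces quinones, went from 828 to 5576 with Nrf2, Srxn1, which repairs oxidized peroxiredoxins, from 656 to 4487, and Gclm, a subunit of the enzyme that limits glutathione synthesis, from 309 to 1486. These rises were 6.74, 6.84 and 4.81 times; they are not ranked against those of the members, which the rule sets at 5 or more. The genes of the pathway closest to the members were Gpx2, an intestinal glutathione peroxidase, at 6.35 with LacZ and 35.5 with Nrf2, and Cbr1, a carbonyl reductase, at 5.87 and 25.4. With Nrf1 Gpx2 reached 47.6 from 5.95, so it responded to both factors.

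**Figure D4:**
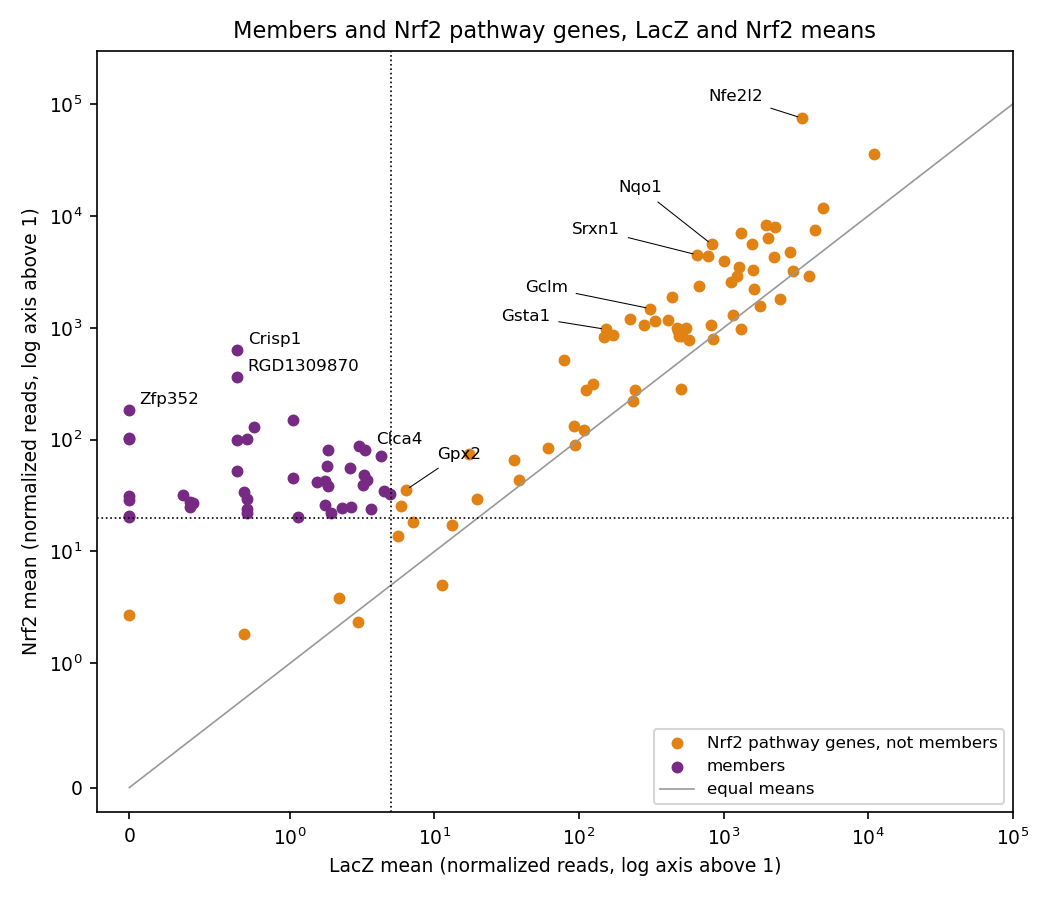
Authors' means with LacZ (horizontal) and Nrf2 (vertical) for the 43 members in purple and listed Nrf2 pathway genes in orange; both axes are linear from 0 to 1 and logarithmic above, dotted lines mark the limits of 5 and 20, and the grey line marks equal means. The pathway genes lie mostly right of 100 with LacZ, whereas the members lie left of 5 by their selection.

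Close relatives of the members varied, and a larger share of them than of all genes was higher with Nrf2. Among 66 listed relatives in 14 families, counted without Gsta1, 24 were at least 1.5-fold higher with Nrf2, 36.4% against 15.6% of all genes, and 9 at least 1.5-fold lower, 13.6% against 15.5%. Of the 24 relatives with a LacZ mean under 5, 15 were higher, 62.5% against 44% of all genes with such a mean, and 1 was lower, 4.17% against 29.2%, but here a single read can pass the limit. In a split chosen after the values were seen, 9 of the 42 relatives with a LacZ mean of at least 5 were higher, 21.4% against 8.62% of all genes with such a mean, and 8 were lower, 19% against 12.2%. The median ratio over the relatives with LacZ reads was 0.985, and the shares were not tested. A relative that met the rule would be a member, so that no relative met it is no finding. Among the relatives with a LacZ mean under 5, the highest Nrf2 means were 16.6 for Dmp1, 10.3 for Fabp1 and 5.11 for Slc17a1. Crisp2 had no read with LacZ and 3, 0 and 0 with Nrf2, beside 2123 for Crisp1. In the secretory family the relative Crispld1 had means of 43.7 and 175. The 4 other listed proteins of the bone and tooth family of Mepe were Dmp1 with 2.58 and 16.6, Spp1 with 2074 and 1562, and Ibsp and Dspp with a single Nrf2 read each. Cers2, Cers4 and Cers5 were expressed with LacZ at 858, 539 and 1161 and had ratios of 0.933, 0.758 and 1.14, so Cers3 was added to a set of ceramide synthases already present. Kcna2 and Kcna5 had no read with LacZ and 7, 0 and 0 and 0, 1 and 2 reads with Nrf2, so Kcna2 rested on a single library, and Kcna6 went from 61.4 to 141. Among the alpha-class transferases, Gsta1 rose from 153 to 970 and Gsta4 from 149 to 834, beside the members Gsta2 and Gsta3, which were selected for a rise. Serpinb2 was at 227 and 815 and Serpinb6 at 1505 and 3958, while Serpinb9 went from 929 to 526.

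**Figure D5:**
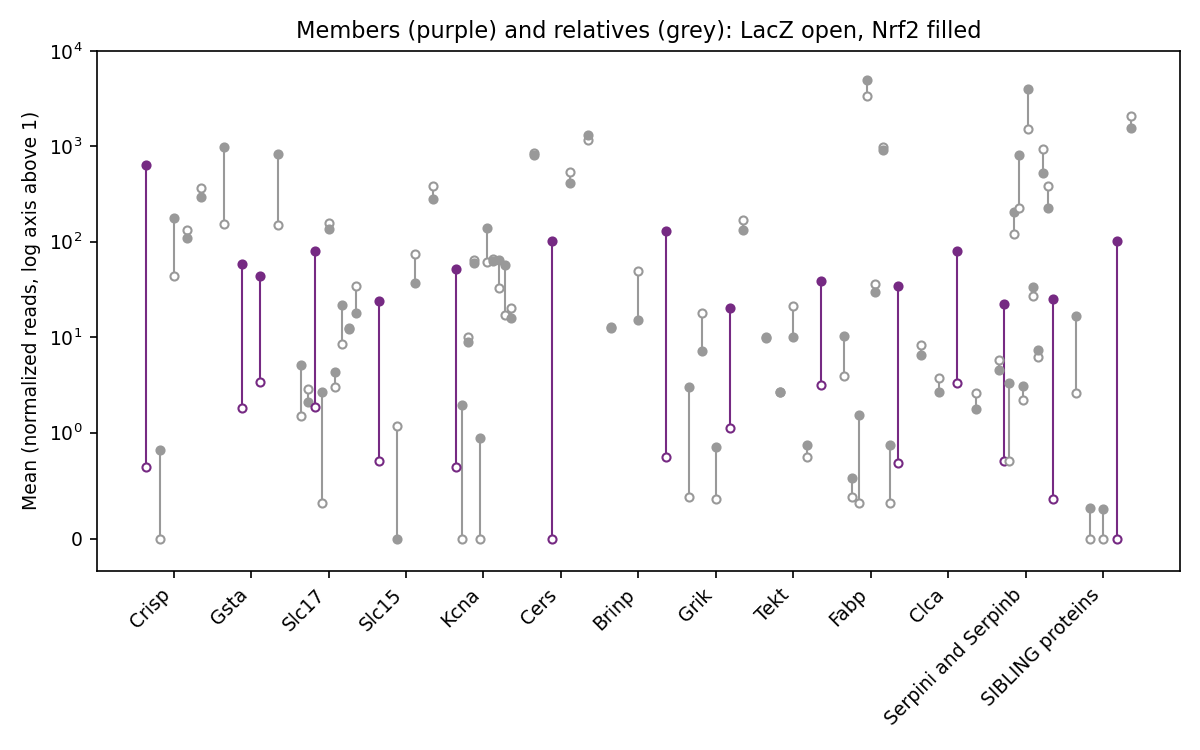
Authors' means with LacZ (open) and Nrf2 (filled) for members in purple and their relatives in grey, by gene family; the vertical axis is linear from 0 to 1 and logarithmic above. Among the relatives, Gsta1 and Gsta4 are higher with Nrf2, while Cers2, Cers4 and Cers5 lie within 1.5-fold of their LacZ means; relatives do not meet the rule by definition.

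Many members are known from other tissues, so markers of those tissues were read in the same tables. Beside the counts below stand the shares over all genes, 15.6% higher and 15.5% lower by 1.5-fold. Where the LacZ mean was at least 5 the shares were 8.62% and 12.2%. Where it was under 5, and a few reads can pass the limit, they were 44% and 29.2%. Lists of 5 to 9 genes were not tested against these shares. Of 7 listed neuron markers, 4 were at least 1.5-fold higher with Nrf2 and 2 lower. Their summed means were 354 with LacZ and 654 with Nrf2, mostly from Tubb3 at 274 and 553, while Elavl4 went from 13.1 to 40.2. Snap25 had no read with LacZ and 4, 3 and 1 with Nrf2, and Gad1 had 9 reads and then 4. Of 7 germ cell markers, 2 were higher and 1 lower, with sums of 27.5 and 33.4. The most abundant was Sycp3 at 15.4 and 16.3, Ddx4, Prm1 and Prm2 were under 5, and Odf1 went from 1.80 to 6.96. Of 8 hepatocyte markers 3 were higher and 3 lower, with sums of 66.5 and 63.1. Apoa1, the most abundant, went from 43.5 to 23.2, Cyp2e1 from 2.10 to 1.14 and Cyp3a2 from 0.336 to 0. Ttr went from 4.78 to 9.25, Tat from 1.91 to 6.45 and Fgb from 1.17 to 4.80. Alb had 1 read with LacZ and 1 with Nrf2. Of 7 kidney tubule and intestine markers 4 were higher and 1 lower, with sums of 168 and 251, mostly from Vil1 at 109 and 195, Slc34a1 had a single read and Cdx2 went from 1.80 to 4.44. Of 5 placenta markers 1 was higher and 2 lower, with sums of 33.8 and 17.4, most of it Prl8a2 at 32.3 and 15.1.

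Markers of cells that such cultures may hold moved in both directions. With Nrf2, 7 of 8 leukocyte markers were at least 1.5-fold lower, with sums of 2051 and 1036; Csf1r, at 283 and 300, was the exception. Ptprc went from 157 to 62.3 and Cd68 from 294 to 180. The rise of the members Cd52, Fcrl6, Clec4f and F13a1 follows from their selection and is not set against these markers. Of 8 fibroblast markers 6 were lower, with sums of 99027 and 53534, led by Col1a1, and 3 of 6 endothelial markers were lower, with sums of 1315 and 948. In bulk RNA, fewer cells of a type and less RNA per cell cannot be told apart. Of 5 smooth muscle markers 1 was higher, with sums of 36090 and 48649 and Acta2 the most abundant. The 9 listed cardiomyocyte markers had sums of 144258 and 147751, with none past 1.5-fold with Nrf2. With Nrf1 the sums went from 135097 to 103543 for cardiomyocyte markers, with ratios from 0.477 for Myh7 to 1.78 for Ryr2 and 0.992 for Actn2. The sums went from 92730 to 24518 for fibroblast, from 1920 to 957 for leukocyte and from 1231 to 896 for endothelial markers. Csf1r (1.35) was the only leukocyte marker and Kdr (1.11) the only endothelial marker with a higher mean under Nrf1. For smooth muscle markers the sum went from 33800 to 56035, carried by Acta2 (1.79) and Tagln (1.78). Cnn1 was at 1.08, Smtn at 0.817 and Myh11 at 0.498. Of 8 epithelial markers 4 were higher and 2 lower, with sums of 279 and 559; Krt18 led with 125 and 304, Cdh1 went from 8.72 to 36.1, Krt5 was at 1.15 and 0 and Epcam at 4.76 and 7.14. Krt8 and Krt18 were higher still with Nrf1, at 560 and 808 against 92.7 and 117, whereas Cldn4 and Krt14 had Nrf1 ratios of 0.807 and 0.573 and Esrp1 was at 0.306 against 1.39. What part any change in cell make-up had in the members' values was not tested.

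Genes next to the members were read through the order of protein-coding genes in the mouse RefSeq annotation (GRCm38.p6), where 38 members have a gene of the same symbol. Zbbx and Serpini2 were the only members next to each other. They were near 1 read with LacZ, had 8 and 5 reads with Nrf1 and 93 and 84 with Nrf2; the LacZ and Nrf2 values follow from the selection of both. Of 50 other neighbours listed in the table of LacZ with Nrf2, 13 were at least 1.5-fold higher with Nrf2, 26% against 15.6% of all genes, and 10 were lower, 20% against 15.5%. In a split chosen after the values were seen, 7 of the 15 neighbours with a LacZ mean under 5 were higher, 46.7% against 44% of all such genes, and 2 lower, 13.3% against 29.2%. Of the 35 others 6 were higher, 17.1% against 8.62%, and 8 lower, 22.9% against 12.2%. The median ratio of the neighbours was 0.960. Mepe lies between Ibsp, which had a single read with Nrf2, and Spp1, which had a lower mean with Nrf2. Aknad1 lies between Gpsm2 and Stxbp3, whose ratios were 0.969 and 0.981. Zfp352 lies between Dmrta1 and Elavl2, with ratios of 0.982 and 0.868. For these 3 genes the neighbours were not 1.5-fold higher, apart from the single read of Ibsp, but elsewhere neighbours differed in both directions. Named after their values were seen, Slc17a1 beside Slc17a3 had a ratio of 3.44, Tbcel beside Grik4 2.85, Kcna6 beside Kcna1 2.29 and Dock9 beside Slc15a1 1.92, while Slamf8 beside Fcrl6 had 0.351, Slc44a5 beside Lhx8 0.409, Plekha4 beside Hsd17b14 0.451 and Tinag beside Fam83b 0.520. The rat order was not used here.

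The core of the antioxidant response element, TGACNNNGC, was searched on both strands in mouse promoters from RefSeq (GRCm38.p6), from 250 bases before to 50 bases after each gene start. These are mouse sequences of genes with the same symbol, not the rat sequences behind the reads. Promoters were matched for 31 members and 6 of them, 19.4%, held the core, against 14.0% of 27025 genes, 12.4% of 32851 promoters and 14.4% of 1656 matched genes with a LacZ mean under 5. The share of members differs by few genes from these backgrounds and was not tested. The 7 matches are shown with 10 bases on each side, read along the strand that carries the core, with the core in capitals, because they let the reader compare the letters around it. A match is a description of the letters, not a bound site.
Cers3, chr7:66743369-66743397, minus strand: tgcctcagacTGACCTGGCttcgctcttt
Clec4f, chr6:83656159-83656187, plus strand: ctcctccctcTGACTCTGCagaaatccaa
Gsta3, chr1:21240454-21240482, plus strand: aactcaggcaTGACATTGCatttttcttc
Rassf6, chr5:90640536-90640564, plus strand: tgcctgcgggTGACAAGGCgtccttgtca
Spire2, chr8:123332650-123332678, plus strand: ggggccggaaTGACAAAGCacacgggcgg
Tmem40, chr6:115759042-115759070, plus strand: ggggcaaccaTGACGTTGCccctgggccc
Tmem40, chr6:115762603-115762631, minus strand: gctggagactTGACTCAGCcttagagctc

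The matching genes differed in how far Nrf2 exceeded Nrf1. Clec4f and Spire2 were among the 6 members that Nrf2 raised less than 5 times over Nrf1, whereas Tmem40 (17.6 times), Gsta3 (10.7 times), Cers3 (19.2 times) and Rassf6 (12.4 times) were not. Crisp1, Zfp352, Aknad1, Brinp3 and Mepe, with the largest Nrf2 means among matched members, had no match within this window, which says only that these letters are absent from these 300 bases of the mouse genome.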

How the data were processed

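Per the labels and the study's methods, stranded mRNA libraries were sequenced as single reads. By the same methods duplicate reads were removed before counting, so the reads given here are those left after that step. The submitters' processing notes name FastQC 0.11.4, HISAT2 2.0.4, SAMtools 0.1.18, featureCounts 1.6.0, edgeR 3.20.5 and Rnor_6.0. The deposited signal is a group mean of read counts divided by size factors, normalized by the authors for each pair of groups; 3 tables hold 14819, 14986 and 14908 genes. The tables also hold fold changes and p-values from the authors' comparisons, which were not used. From the means, whole reads were solved per library with a relative tolerance of 2e-09 (9e-14 in the table of Nrf1 with Nrf2) and the solver was tested on simulated data. A pseudocount of 1 was added on the log2 scale. Of the symbols, 26 were written as dates in each table with LacZ. Python 3.11.15, pandas 2.3.3, numpy 2.4.6, scipy 1.17.1 and matplotlib 3.10.9 were used.

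The members and lists were chosen with earlier results of these data known. Named genes were the members with the 10 highest Nrf2 means, those at 0 with LacZ, those passing with Nrf1, the 5 highest and lowest ratios of Nrf2 over Nrf1, the 3 genes on either side of each limit and the listed genes. No test was run, since the rule used the contrast. Nfe2l1 was not analysed here. Some members are counted but not reported here by name.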

Additional observations from a re-analysis of the deposited data

How the results depend on the processing

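The limits set the counts. With an Nrf2 floor of 10 or 50 in place of 20, 78 or 16 genes met the rule; the other 13 alternatives gave counts within 1.5 times of 43, from 31 to 61. Leaving out 1 library gave 42 to 46 genes, 2 to 3 members that Nrf1 also switches on and 36 to 38 members at least 5 times higher with Nrf2 than with Nrf1. With an Nrf1 floor of 50, 0 members and 0 genes passed with Nrf1, and with a floor of 10, 19 genes did. With a pseudocount of 5 the median log2 ratio of Nrf1 over LacZ was 0.083 and that of Nrf2 over Nrf1 was 2.56, since a larger pseudocount shrinks ratios of low genes. Leaving out Map2k3 and Ogn, chosen after seeing the data, gave 41, 2 and 36. No paired analysis was possible because the group means carry no replicate numbers and no test was run. With LacZ at 3 reads or fewer in 24 members, the order of their ratios is not resolved.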

Other observations

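The mirrored limits, a mean of at least 20 with LacZ and under 5 with the factor, found 2 genes for Nrf2, 0.0188% of 10629 with a LacZ mean of at least 20, and 14 for Nrf1, 0.133% of 10566. The genes for Nrf2, named after their values were seen, were C4b, a complement component, and Pdcd5. Pdcd5 had an authors' mean of 92.5 with LacZ and 78.9 with Nrf1 in its own table, and was listed at 0 with Nrf2; how reads were assigned between overlapping genes could not be examined, so this 0 may not mean silence. C4b was at 23.0 with LacZ and 4.15 with Nrf2, and at 21.6 with LacZ and 0.952 with Nrf1 in the table of that pair.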
